A study of Canis lupus familiaris with 36 samples.

Results

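The 34 tumors of a canine oral squamous cell carcinoma (OSCC) series were ranked by the ratio of FOXP3 to CD8a, which is the log2 value of FOXP3 minus the log2 value of CD8a in the same tumor. The 17 tumors with the highest ratio are called high-ratio tumors here, and the 17 with the lowest ratio are called low-ratio tumors. These 34 tumors are all but 2 of the 36 samples of the series, and the other 2 are oral mucosa. Because the groups were made from the measured values of FOXP3 and CD8a, those 2 genes and their ratio are described without a test, and only the other 42 immune genes of the panel were compared.

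All tumors arose spontaneously in pet dogs, and the RNA came from archived frozen or formalin-fixed tissue, including some lymph node tumor tissue. Transcripts were counted with color-coded NanoString probes on a custom panel of 48 canine genes, without amplification. The labels give the tissue and a patient number only, so the kind of storage, the tumor site, any treatment and the age of each dog were not compared. The study's text counts fewer dogs than samples, so some samples share a dog, and which ones is not labelled.

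FOXP3 is the transcription factor that defines regulatory T cells, which restrain other T cells through inhibitory receptors such as CTLA4 and through cytokines such as IL10 and TGFβ. CD8a is a chain of the coreceptor of cytotoxic T cells, which kill target cells with granzymes (GZMA, GZMB) and perforin (PRF1). CD3e is part of the receptor complex that every T cell carries, the regulatory and the cytotoxic alike. The ratio of FOXP3 to CD8a is widely used in tumor immunology as a rough gauge of the balance between these cell types. In bulk tissue such as this, fewer cells of a type and less RNA per cell cannot be told apart.

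Depth and batch differed between tumors. Each tumor gave between 27092 and 665587 counts in all, with a median of 223560 in the high-ratio and 230076 in the low-ratio tumors. FOXP3 gave 33 to 916 counts and CD8a 61 to 15940 counts per tumor, and both were above the negative-control background in all 34. In the high-ratio tumor of patient 6 the margin was small, with a FOXP3 count of 48 against a background of 45.8. The spiked positive controls divided the series into a larger batch of 27 tumors, 11 of them high-ratio and 16 low-ratio, and a smaller batch of 7 tumors, 6 of them high-ratio and 1 low-ratio. The tumors of patients 33 and 34, both low-ratio, were the closest pair of the series, 0.19 apart in mean absolute log2 difference where the next pair was 0.51 apart. Every gene called between the groups lost its call without these 2 tumors, with the batch as a term and in the larger batch alone, as given further below. In the other comparisons, where leaving out these 2 tumors or a batch ended the call of a gene named here, this is said with the result.

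The log2 ratio ran from -4.33 to 1.11 over the 34 tumors. It was -0.75 ± 0.74 (SD, n = 17) in the high-ratio and -2.97 ± 0.87 (SD, n = 17) in the low-ratio tumors. At the boundary, the tumor of patient 27 was just inside the high-ratio group at -1.74 and that of patient 28 just inside the low-ratio group at -1.82. The ratio is a continuum without a gap at this boundary. The mucosa samples had ratios of -1.23 and -1.89. Since FOXP3 and CD8a were read by different probes, a ratio above or below 0 does not give which transcript was more abundant.

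The groups differed in CD8a and hardly in FOXP3. The log2 value of CD8a had a lowest, median and highest value of 6.54, 8.56 and 9.49 in the high-ratio tumors and 7.96, 10.54 and 13.48 in the low-ratio tumors, with means of 8.14 ± 0.93 and 10.58 ± 1.5 (SD, n = 17 each). Of the 17 low-ratio tumors, 14 lay above every high-ratio tumor. The log2 value of FOXP3 ran from 6.12 through a median of 7.13 to 9.74 in the high-ratio tumors and from 5.89 through 7.89 to 9.20 in the low-ratio tumors, with means of 7.39 ± 0.96 and 7.61 ± 1.01 (SD, n = 17 each). FOXP3 was above the median of all tumors in 6 of the 17 high-ratio and in 11 of the 17 low-ratio tumors. The name regulatory-skewed would thus not describe the amount of FOXP3 in the high-ratio tumors, and the groups are named by their ratio for that reason.

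As a description over the 34 tumors, the ratio had a Pearson correlation of -0.83 with CD8a and of -0.07 with FOXP3. FOXP3 and CD8a correlated at 0.61 with each other, and all of these measures share their samples and their scaling. Without patients 33 and 34 (n = 32) the values were -0.79, 0.15 and 0.49. FOXP3 and CD8a are the parts of the ratio, so its correlations with them are set in part by its definition. A few tumors stood at the ends of the ranking. The tumor of patient 19 had the highest ratio, 1.11, together with the highest FOXP3 value of the series. Those of patients 33 and 34 had ratios of -4.33 and -4.12 with the highest CD8a values, 13.48 and 13.32. The tumor of patient 14 lay between them at -4.14, with a CD8a value of 11.55.

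**Figure D1:**
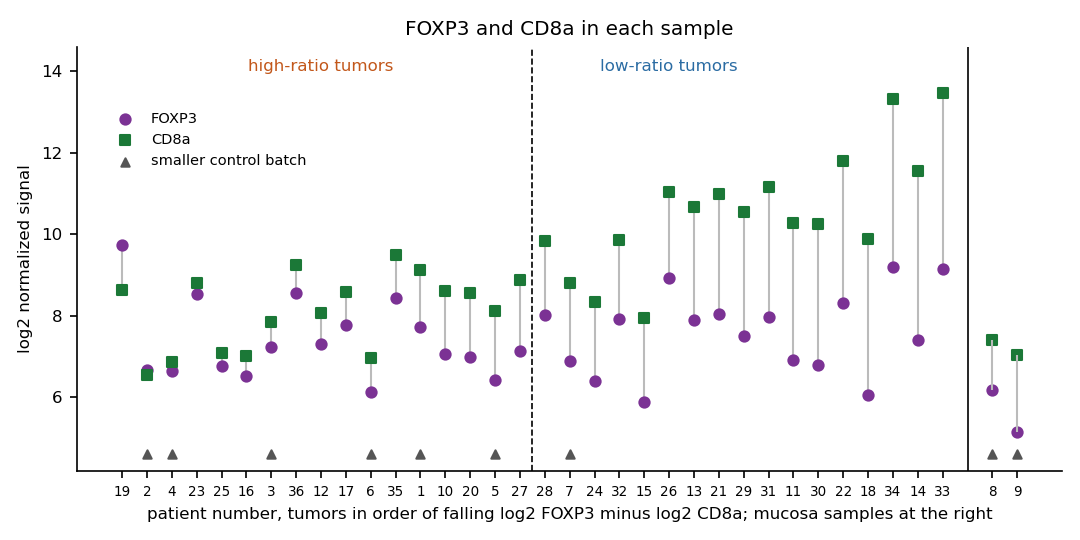
Log2 normalized signal of FOXP3 (purple circles) and CD8a (green squares) in each sample, with the 34 tumors ordered by falling ratio and the mucosa samples at the right; grey triangles mark the smaller control batch and the dashed line divides the groups of 17. Among the tumors CD8a ranges from 6.54 to 13.48 and tends to be higher toward the right, while FOXP3 stays between 5.89 and 9.74. CD8a is itself part of the ratio that orders the tumors.

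Total T cell transcript, read from CD3e, was also lower on average in the high-ratio tumors. CD3e had values of 8.13, 9.60 and 10.80 (lowest, median, highest log2) in the high-ratio tumors and 8.08, 10.52 and 14.19 in the low-ratio tumors, and 8 low-ratio tumors lay above every high-ratio tumor. Relative to CD3e in the same tumor, FOXP3 was at -2.25 ± 0.82 in the high-ratio and -3.31 ± 0.78 in the low-ratio tumors, while CD8a was at -1.5 ± 0.55 and -0.34 ± 0.54 (log2 differences, SD, n = 17 each). Set against T cell transcript, the high-ratio tumors thus held more FOXP3 and less CD8a. These differences hold the measures that made the groups and were not tested. CD3e correlated at 0.90 with CD8a and at 0.73 with FOXP3 over the 34 tumors, as a description.

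**Figure D2:**
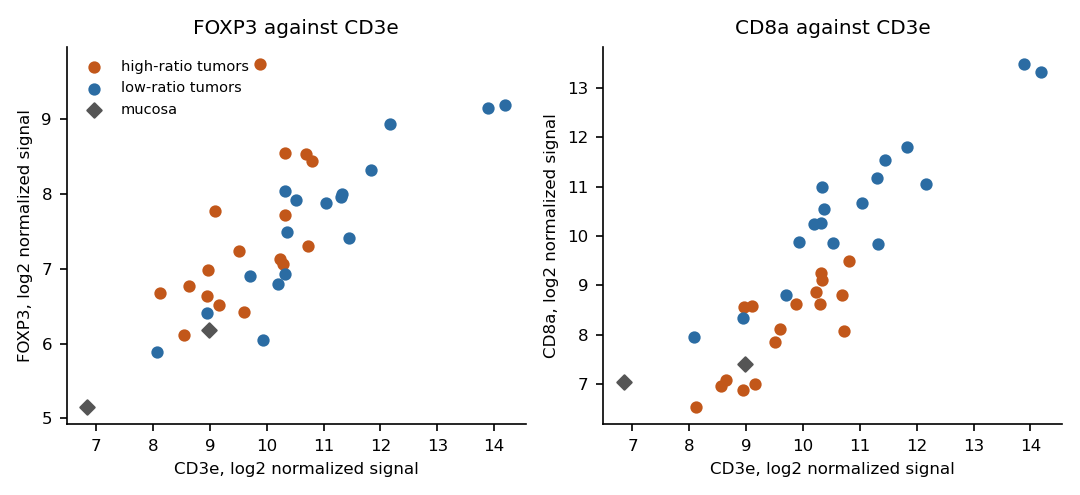
Log2 normalized signal of FOXP3 (left) and CD8a (right) against CD3e, with 1 point per sample: high-ratio tumors in orange, low-ratio tumors in blue, mucosa as grey diamonds. At a given CD3e most orange points lie above the blue ones for FOXP3 and below them for CD8a, and the 2 blue points at the far right, with CD3e at 13.89 and 14.19, are patients 33 and 34.

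The first comparison asked which of the other 42 immune genes differed between the groups. In high-ratio tumors 6 genes were lower (14.3%) and 1 was higher (2.38%), by limma on log2 values with Benjamini-Hochberg adjustment over the 42 genes and a threshold of 0.05. These 7 genes were 16.7% of those tested, and 13 genes had an unadjusted p below 0.05. The lower genes were the T cell receptor chain CD3e, the costimulatory receptor CD27, the granzyme GZMA, the transcription factors TBX and GATA3, and PDCD1LG2, a ligand of PD-1. The higher gene was IL8, a chemokine that draws neutrophils. None of the 42 genes (0%) separated the groups without overlap.

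The gene values as a whole were lower in the high-ratio tumors, with 30 of the 42 differences negative and a median gene difference of -0.47. The median over the 42 genes within a tumor was 8.20 ± 0.43 in the high-ratio and 8.77 ± 0.65 in the low-ratio tumors (log2, SD, n = 17 each), a shift of -0.57. The housekeeping genes set the scale, and this shift is part of every difference below. Whether it came from the scale or from the amount of immune transcript was not tested, and rescaling to equal medians would remove either. With all tumors rescaled to equal medians over the tested genes, 26 differences were positive and 16 negative, and IL8 alone was called (2.38%).

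Among T cell genes, CD3e was lower by 1.28 on the log2 scale in high-ratio tumors, or 2.42-fold (SE 0.41, limma adjusted p = 0.0287), and by 0.71 after rescaling to equal medians. CD27 ran from 6.10 through a median of 7.30 to 8.49 in high-ratio tumors and from 5.17 through 8.25 to 11.29 in low-ratio tumors. The groups overlapped, although 8 low-ratio tumors lay above every high-ratio tumor. The CD27 difference was -1.18 (SE 0.39, limma adjusted p = 0.0287). Of the 6 T cell receptor and costimulation genes, CD3e and CD27 fell and the other 4 did not pass, with a list median of -0.64 against -0.47 and 14.3% lower over all 42 genes. CD28, the receptor for the first costimulatory signal, had a difference of -0.81 (SE 0.35, limma adjusted p = 0.0848), and IL2, the T cell growth factor, one of 0.026 (SE 0.23, limma adjusted p = 0.954).

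GZMA, a protease of cytotoxic granules, had log2 values from 5.24 through a median of 7.06 to 9.33 in high-ratio tumors and from 6.23 through 7.94 to 10.27 in low-ratio tumors. Most of the range was shared, with 6 high-ratio tumors below every low-ratio tumor and 4 low-ratio tumors above every high-ratio tumor. GZMA was lower by 2.49-fold in high-ratio tumors (log2 difference -1.32, SE 0.38, limma adjusted p = 0.0287). TBX, the panel's name for a T-box factor, ran from 4.24 through 6.03 to 7.09 against 5.24 through 6.75 to 8.81, and its difference was -0.99 (SE 0.32, limma adjusted p = 0.0287). Of the 6 cytotoxic effector and NK genes, GZMA and TBX fell and 4 did not pass, against 14.3% lower over all genes tested, and the list median of -0.55 was near the -0.47 of all 42. GZMB had a difference of -0.61 (SE 0.38), PRF1 of -0.48 (SE 0.39), and NCR1, a receptor of natural killer cells, of 0.13 (SE 0.34), with limma adjusted p of 0.258, 0.406 and 0.882. Over a wider list of 8 genes associated with CD8 T cells, which shares GZMA and TBX and adds genes such as PD-1 and LAG3, 2 fell and 6 did not pass, with a median of -0.61, beside 14.3% lower and a median of -0.47 over all 42 genes.

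GATA3, best known as the factor of type 2 helper T cells and also expressed in squamous epithelium, had the largest number of low-ratio tumors above all high-ratio tumors among the 42 genes. It had log2 values from 6.18 through a median of 7.22 to 8.32 in high-ratio tumors and from 6.49 through 8.39 to 11.94 in low-ratio tumors, and 11 of the 17 low-ratio tumors lay above every high-ratio tumor. Its difference was -1.27, or 2.42-fold lower (SE 0.37, limma adjusted p = 0.0287). The tumors of patients 33 and 34 stood highest, at 11.88 and 11.94, and without both the difference was -0.85 (SE 0.28, limma adjusted p = 0.0925). The mucosa samples were at 11.93 and 6.76. The other lineage factors BCL6, of follicular helper T cells, and Pax5, of B cells, had differences of 0.03 (SE 0.25) and -0.49 (SE 0.34), neither of which passed.

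PDCD1LG2 ran from 6.95 through a median of 8.25 to 10.22 in high-ratio tumors and from 7.63 through 9.27 to 10.37 in low-ratio tumors. The lowest 5 tumors for this gene were all high-ratio, and 2 low-ratio tumors lay above every high-ratio one. Its difference was -0.91 (SE 0.30, limma adjusted p = 0.0287). The panel lists both CD274 and PD-L1, names of the other ligand of PD-1, and their differences were 0.065 (SE 0.33) and 0.092 (SE 0.29). The inhibitory receptors PD-1 and LAG3 had differences of -0.97 (SE 0.44, limma adjusted p = 0.108) and -0.60 (SE 0.25, limma adjusted p = 0.0844), so neither passed.

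IL8 went the other way. It ran from 11.42 through a median of 15.22 to 18.60 in high-ratio tumors and from 10.37 through 13.63 to 16.05 in low-ratio tumors. Of the high-ratio tumors, 13 lay above the median of all tumors, against 4 of the low-ratio tumors. IL8 was 3.89-fold higher in high-ratio tumors (log2 difference 1.96, SE 0.59, limma adjusted p = 0.0287), and when tumors were put on equal medians the difference was 2.53 (SE 0.64, limma adjusted p = 0.0128). The other 6 inflammation and stroma genes did not pass. CXCL2, also a chemokine for neutrophils, had a difference of -0.59 (SE 0.63, limma adjusted p = 0.57), and the inflammatory cytokine IL6 one of 0.17 (SE 0.52). The monocyte chemokine CCL2 was the nearest to the threshold outside the 7 genes, at -0.83 (SE 0.31, limma adjusted p = 0.0624).

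Of the 5 panel genes listed here as associated with regulatory T cells, FOXP3 aside, 0 passed the test between the groups. CTLA4, an inhibitory receptor, ran from 6.63 through a median of 8.37 to 9.94 in high-ratio tumors and from 6.13 through 8.61 to 9.80 in low-ratio tumors. The groups covered nearly the same range. Its difference was -0.29 (95% interval -0.98 to 0.41, limma adjusted p = 0.636), and after rescaling to equal medians it was 0.28.

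ICOS, a costimulatory receptor, ran from 8.11 through 9.56 to 10.80 against 7.26 through 9.97 to 11.35, a difference of -0.47 (95% interval -1.14 to 0.21, limma adjusted p = 0.313). OX40, a receptor of activated T cells, ran from 5.96 through 7.19 to 10.59 against 6.07 through 7.15 to 9.16, a difference of 0.16 (95% interval -0.46 to 0.78, limma adjusted p = 0.793). The highest OX40 value, 10.59, belonged to the tumor of patient 3.

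IL10, a cytokine that damps inflammation, ran from 7.28 through 8.02 to 9.55 against 7.86 through 8.59 to 9.67, and 8 high-ratio tumors lay below every low-ratio tumor. Its difference was -0.46 (95% interval -0.92 to 0.0038, limma adjusted p = 0.155). TGFβ ran from 9.73 through 11.47 to 12.50 against 11.05 through 11.69 to 12.33, a difference of -0.16 (95% interval -0.56 to 0.25, limma adjusted p = 0.652). The list median of the 5 genes was -0.29, against -0.47 over all 42. The signs of ICOS, IL10 and TGFβ also turned positive with equal medians, at 0.10, 0.11 and 0.41, and that of OX40 turned negative with the batch as a term, at -0.027.

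**Figure D3:**
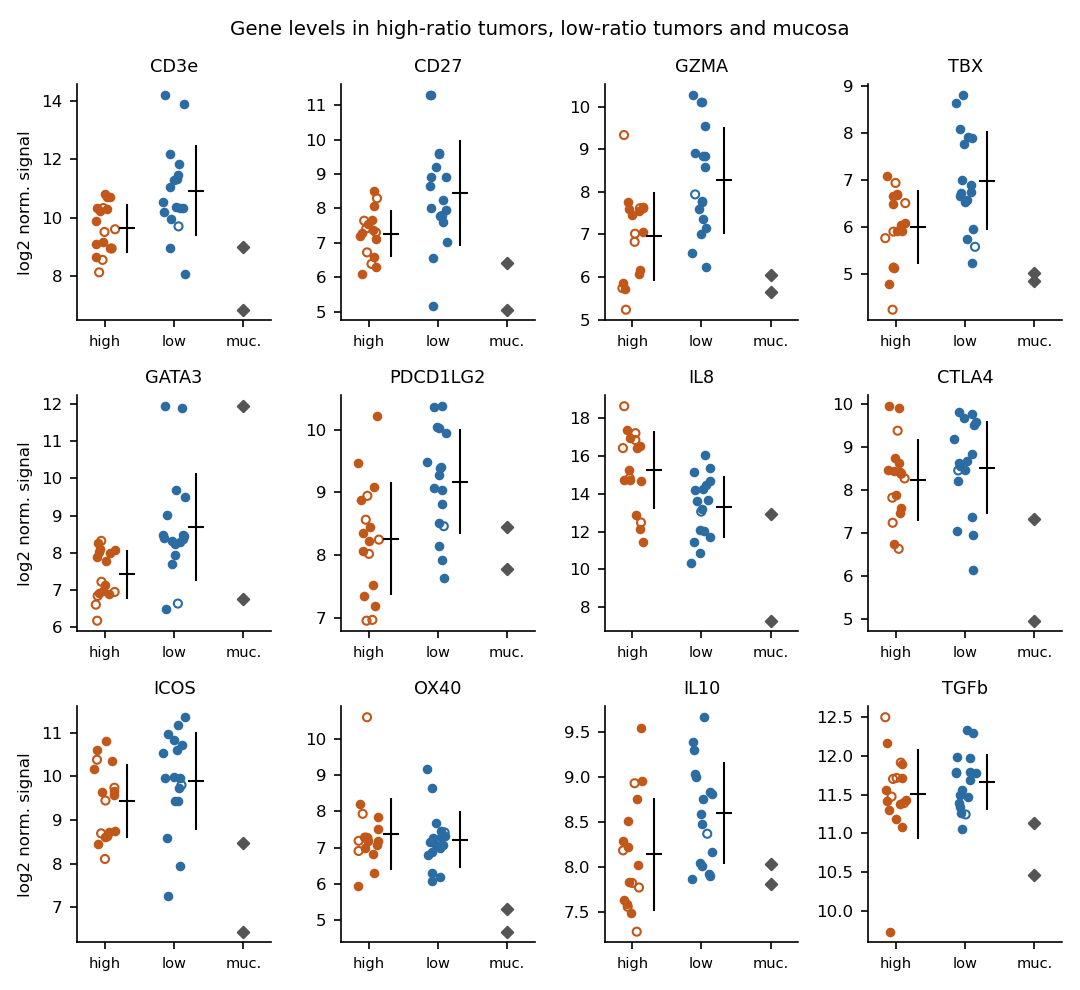
Log2 normalized signal of 12 genes in high-ratio tumors (orange), low-ratio tumors (blue) and mucosa (grey diamonds), 1 point per sample, with open circles for tumors of the smaller batch and bars for the mean ± SD of 17 tumors; each panel has its own axis. The 7 genes from CD3e to IL8 passed the test with overlapping groups, while CTLA4, ICOS, OX40 and TGFβ (written TGFb) overlap over most of their ranges and IL10 has 8 high-ratio tumors below every low-ratio tumor.

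The remaining lists held no called gene. The 6 genes of antigen-presenting cells and costimulatory ligands had a median of -0.48, and CD40, the activating receptor of dendritic and B cells, was the farthest from 0 at -0.68 (SE 0.27, limma adjusted p = 0.0727). The 4 genes of interferon response and MHC class I had a median of -0.58, among them the interferon-induced gene MX1 at -0.69 (SE 0.35, limma adjusted p = 0.159).

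**Figure D4:**
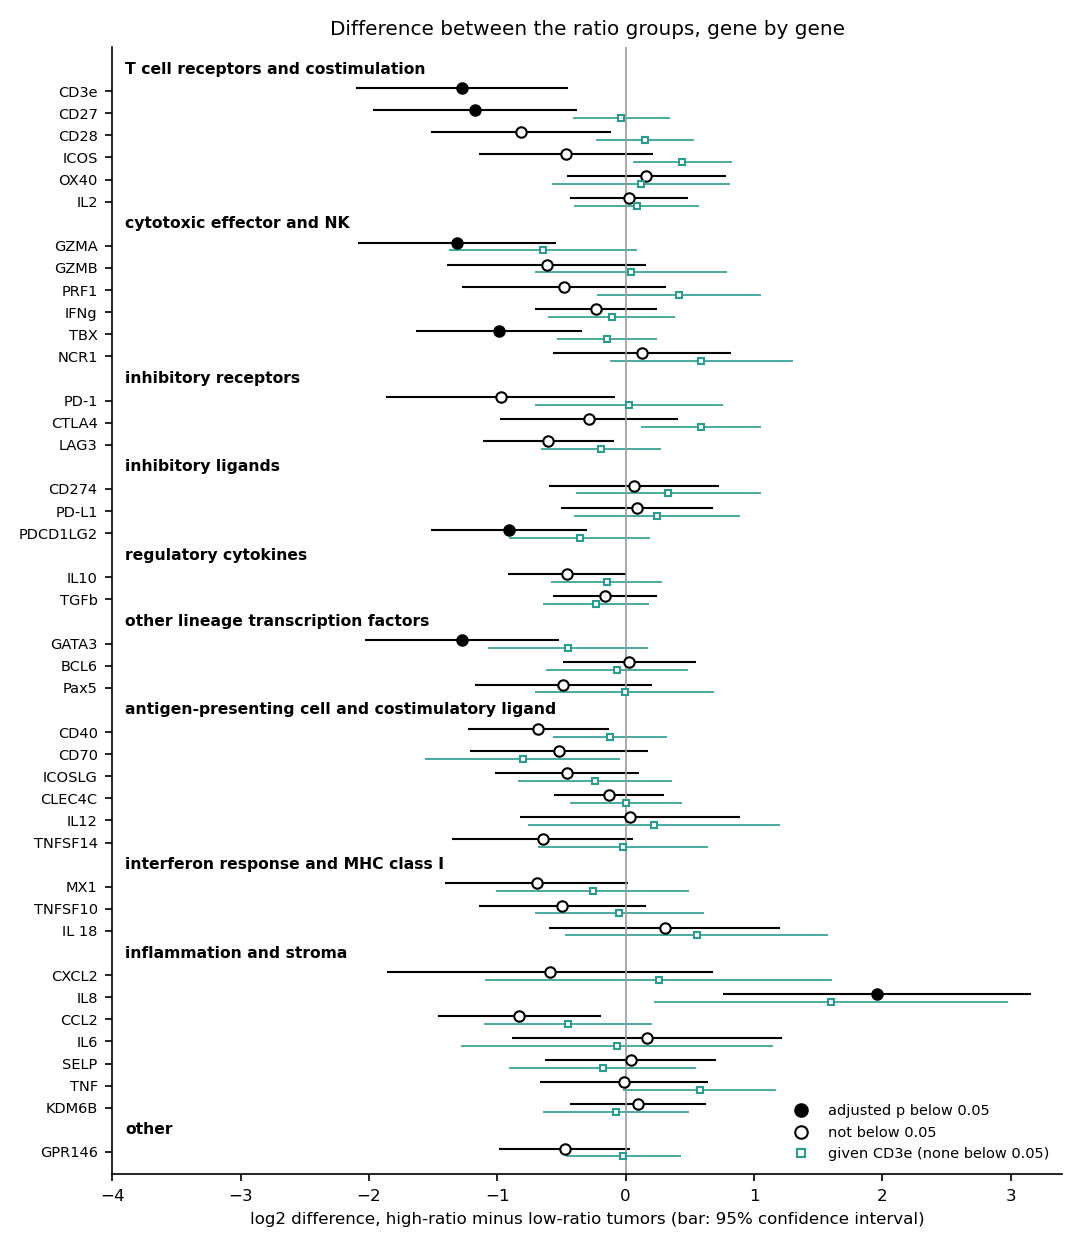
Log2 difference of the high-ratio minus the low-ratio tumors for 40 of the 42 genes tested, grouped by list, with 95% confidence intervals; black circles are the plain comparison (filled where the limma adjusted p was below 0.05) and green squares the comparison at a given CD3e. The 7 filled points are 6 below 0 and IL8 at 1.96, and CD27, CD28 and ICOS move to about 0 or above it once CD3e is in the model.

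The 7 calls were sensitive to a few tumors and to the batch. Leaving out 1 tumor at a time gave 0 to 13 called genes, with 0 without patient 2 or patient 33, 3 without patient 26, 31 or 34, and 13 without patient 19. With the batch as a term, no gene was called by limma, and 7 had an unadjusted p below 0.05. GZMA then had a difference of -1.30 (SE 0.41, limma adjusted p = 0.14), GATA3 of -1.0 (SE 0.39) and IL8 of 1.68 (SE 0.64), the last 2 with a limma adjusted p of 0.145. Within the larger batch alone, 11 against 16 tumors, GZMA stood at -1.34 (SE 0.43), CD27 at -1.23 (SE 0.48) and IL8 at 1.51 (SE 0.65), and again no gene was called. Without patients 33 and 34 none of the 7 was called either, with 9 genes at an unadjusted p below 0.05. The differences were then -1.06 for GZMA, -0.86 for CD3e, -0.80 for CD27, -0.76 for TBX, -0.79 for PDCD1LG2 and 1.77 for IL8, with limma adjusted p from 0.0925 to 0.112. The smaller batch, with 6 against 1 tumors, gave -0.98 for GZMA and 3.00 for IL8, but 0.38 for GATA3 and 0.17 for TBX, and the smallest p it allows is 0.143 (exact permutation test, two-sided). When the ratio itself was used in place of the groups, 15 genes were called (35.7%), and the 11 highest against the 11 lowest tumors gave 14 (33.3%). Dividing the larger batch at its own median ratio gave 2 (4.76%), GZMA and IL8.

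The second comparison asked whether the groups differed at a given amount of CD3e, and so of total T cell transcript. None of the 41 genes (0%) was called by limma, and 4 had an unadjusted p below 0.05. These 4 were CTLA4 at 0.59 (SE 0.23), IL8 at 1.60 (SE 0.68), ICOS at 0.44 (SE 0.19) and CD70, the ligand of CD27, at -0.80 (SE 0.37), with limma adjusted p of 0.354 for the first 3 and 0.39 for CD70. CTLA4 and ICOS thus had negative differences before CD3e was taken into account and positive ones after it. The difference of CD27 was -0.035 (SE 0.19), that of TBX -0.15 (SE 0.19) and that of GZMA -0.64 (95% interval -1.38 to 0.089, limma adjusted p = 0.57).

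Of the 5 regulatory T cell associated genes, 0 passed, and their median was 0.12 against -0.024 over all 41 genes. Of the 8 CD8 T cell associated genes, 0 passed, with a median of -0.092. CTLA4 and ICOS passed without patients 33 and 34, at 0.67 (SE 0.20) and 0.52 (SE 0.15), both with a limma adjusted p of 0.0383, and CTLA4 also passed when the ratio was a continuous term, at 0.32 per log2 unit of the ratio (SE 0.089, limma adjusted p = 0.0415). Since CD3e itself went with CD8a, which made the groups, this comparison removes part of the contrast as well.

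The third comparison took the ratio apart and fitted each gene on FOXP3 and CD8a together over the 34 tumors. In that fit 10 genes rose with FOXP3 at a given CD8a, and 0 fell, which is 23.8% of the 42 tested. In log2 units per log2 unit of FOXP3, the slope of PD-1, the inhibitory receptor of chronically stimulated T cells, was 0.79 (SE 0.17) and that of CTLA4 0.68 (SE 0.15), both with a limma adjusted p of 7.9e-04. CD28 followed at 0.52 (SE 0.13, limma adjusted p = 0.0050) and ICOS at 0.49 (SE 0.14, limma adjusted p = 0.0158). Others called were CD3e at 0.41, CD27 at 0.42, ICOSLG (the ligand of ICOS) at 0.46, PRF1 at 0.55 and the B cell factor Pax5 at 0.50. Without patients 33 and 34 the count was 7, and CD27 at 0.38, PRF1 at 0.54 and Pax5 at 0.46 were no longer called (limma adjusted p of 0.0511, 0.0511 and 0.0612). Pax5 was also lost without either of these tumors, in the larger batch alone (8 calls, limma adjusted p of Pax5 0.0577) and without the 3 tumors of lowest total count (0.32, limma adjusted p = 0.173). With values raised to the negative-control background, the slope of Pax5 was 0.46 and was not called (limma adjusted p = 0.0915). Leaving out 1 tumor at a time kept the call of CD3e in 33 of 34 fits, ICOSLG in 31, CD27 in 29, PRF1 in 28 and Pax5 in 15. Over these fits the ICOSLG slope fell as low as 0.23, and its limma adjusted p rose as high as 0.425.

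Of the 5 regulatory T cell associated genes, CTLA4 and ICOS rose with FOXP3 and 3 did not pass, beside 23.8% that rose over all 42 genes. The slope of IL10 was 0.30 (SE 0.12, limma adjusted p = 0.0558), that of OX40 0.24 (SE 0.19, limma adjusted p = 0.421) and that of TGFβ -0.26 (SE 0.11, limma adjusted p = 0.0917). The list median was 0.30 against 0.17 over all 42 genes. The rise was not limited to this list. Of the 6 T cell receptor and costimulation genes 4 rose with FOXP3, with a median of 0.41. Of the 8 CD8 T cell associated genes 2 rose, with a median of 0.12. PD-1, CTLA4, CD28 and ICOS were called in all 34 fits that left out 1 tumor, and the number of calls was 4 without patient 30 and 5 without patient 11. These 4 genes were also called with the batch as a term, at 0.75, 0.70, 0.55 and 0.51, and without patients 33 and 34. After rescaling to equal medians only PD-1 kept a positive call, at 0.88 (SE 0.20, limma adjusted p = 0.0028), and TNFSF10, the death ligand TRAIL, was called at -0.73 (SE 0.19, limma adjusted p = 0.0101).

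With CD8a at a given FOXP3, 16 genes rose (38.1%) and IL8 fell (2.38%), together 40.5% of the 42 tested. The slope of CD3e was 0.57 per log2 unit of CD8a (SE 0.074, limma adjusted p = 1.2e-07), that of TBX 0.46 (SE 0.071, limma adjusted p = 3.0e-06) and that of GZMA 0.61 (SE 0.11, limma adjusted p = 3.6e-05). CD27 at 0.51, GATA3 at 0.52, PDCD1LG2 at 0.38, GZMB at 0.38, PD-1 at 0.34, CD28 at 0.32 and LAG3 at 0.25 rose as well. The slope of IL8 was -0.66 (SE 0.22, limma adjusted p = 0.0131), and in the larger batch alone it was -0.49 and was not called (SE 0.24, limma adjusted p = 0.117). Of the 8 CD8 T cell associated genes, 5 rose and 3 did not pass, with a median slope of 0.30 against 0.12 over all 42. MX1 at 0.42 and TNFSF10 at 0.32, both linked to the interferon response, and the receptor CD40 at 0.27 were also called. Of the regulatory T cell associated genes ICOS alone rose, at 0.24 (SE 0.080, limma adjusted p = 0.0131). Once medians were made equal, 19 genes were called, 7 with a positive and 12 with a negative slope, and 8 of the 17 genes kept their call and sign. Of those that lost it, ICOS stood at 0.11 (limma adjusted p = 0.301), GZMB at 0.13, LAG3 at 0.031, PDCD1LG2 at 0.13, CD40 at 0.090, MX1 at 0.065 and TNFSF10 at -0.083. Without patients 33 and 34 MX1 was not called (0.26, limma adjusted p = 0.0924).

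**Figure D5:**
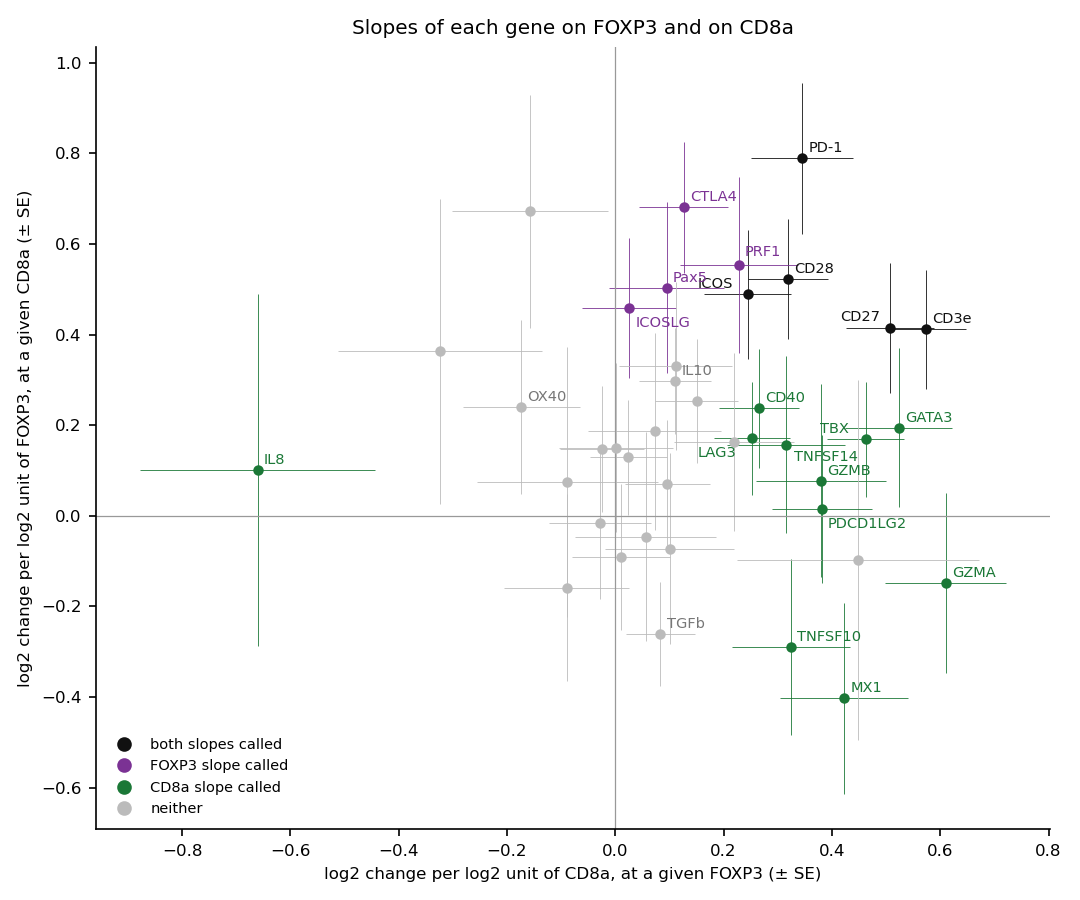
Slope of each of 40 genes on CD8a at a given FOXP3 (horizontal) and on FOXP3 at a given CD8a (vertical), both in log2 units per log2 unit over 34 tumors, with bars for 1 SE; colors give which slope had a limma adjusted p below 0.05. CTLA4 (0.13, 0.68) and PD-1 (0.34, 0.79) lie highest, GZMA (0.61, -0.15) lies farthest right, and IL8 lies at -0.66 on the CD8a axis.

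A gene called for one slope and not for the other is not thereby shown to differ between them, so the difference of the slopes was fitted as well. No gene passed in that fit (0% of 42, limma), and 6 had an unadjusted p below 0.05. The smallest adjusted p was 0.15, shared by MX1 at -0.83 (SE 0.30), GZMA at -0.76 (SE 0.28) and CTLA4 at 0.55 (95% interval 0.14 to 0.97), as the FOXP3 slope minus the CD8a slope. The interval of PD-1 ran from -0.034 to 0.92 and that of CD3e from -0.54 to 0.22.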

How the data were processed

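RNA from 34 canine OSCC tumors and 2 oral mucosa samples was measured on a NanoString panel of 44 immune and 4 housekeeping genes, which also holds 6 positive and 6 negative controls. Gene values are a normalized signal that the authors made in nSolver (version not given in the sources used here) by scaling each sample to an equal geometric mean of its housekeeping genes, while control probes were deposited unscaled. Each column was matched to a sample by the sample identifier that heads it, and the patient number is the title of that sample.

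Ratio groups were formed from log2 FOXP3 minus log2 CD8a within the 34 tumors. All values were above 0 and were used as log2 without a pseudocount. Groups, groups with CD3e as a covariate, and the slopes on FOXP3 and CD8a in 1 model were fitted with limma 3.58.1 in R 4.3.3 over all 42 tested genes (41 with CD3e as covariate), adjusted by Benjamini-Hochberg with a threshold of 0.05. The difference of the slopes was added after seeing the data. p-values measure the spread between these tumors. The scripts were tested on simulated data. Other steps used Python 3.11.15, numpy 2.4.6, pandas 2.3.3 and matplotlib 3.10.9.

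Dividing each sample by a factor recovered whole counts for 1727 of 1728 gene values (99.9%, tolerance 0.02). They were used for depth and for the background, the mean of the negative controls plus 2 SD, and for no test, since the deposited table also mixes in unscaled control rows. Batches rest on positive control B divided by positive control C, which lay at 1.54 to 1.77 in the larger and at 2.59 to 2.85 in the smaller batch (boundary 2.0), and a division of the larger batch by the first positive control at 65000 gave 3. These are batches of control behavior, and what caused them was not tested.

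The members, gene lists and tests were chosen with earlier results of these data known. Every tested gene could be named within its list. The lowest, median and highest values are given for CD3e, for called genes (the 12 with the largest differences, of which there were 7) and for the 5 regulatory T cell associated genes. Some panel genes are not named here but stayed in all tests and counts. Of the 44 immune gene names, 33 are current RefSeq symbols, and the others were kept as the panel spells them. Alternatives included other scalings, filters, batch terms, group definitions, tests and samples left out.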

Additional observations from a re-analysis of the deposited data

How the results depend on the processing

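The comparison of the ratio groups gave 7 called genes, and the number depended on the setting. It was 0 with a term for the batch, or for 3 batches (7 with an unadjusted p below 0.05 in each), 0 in the larger batch alone (8 unadjusted), 0 without patients 33 and 34 (9 unadjusted), 0 with these 2 tumors as their mean (12 unadjusted) and 0 with groups made by the residual of FOXP3 given CD8a (6 unadjusted). It was 1 with equal medians, 2 (GZMA and IL8) with the larger batch divided at its own median, 14 for the 11 highest against the 11 lowest and 15 with the ratio as a continuous term. Leaving out 1 tumor gave 0 to 13, including 0 without patient 33, whose 12 genes with an unadjusted p below 0.05 had a smallest limma adjusted p of 0.0518, and 3 without patient 34. The smaller batch alone, with 6 against 1 tumors, could give only 0 calls by the exact permutation test (smallest p 0.143), so its count says nothing. A t-test with unequal variances called 6 and a permutation test 7. Given CD3e, the count of 0 became 2 without patients 33 and 34 and 1 with the continuous ratio, and stayed at 0 in every fit without 1 tumor. The 10 FOXP3 slopes became 2 with equal medians and 4 to 11 without 1 tumor. The 17 CD8a slopes became 14 to 18 without 1 tumor, and 19 with equal medians, of which 8 were among the 17 with the same sign. Under the other settings 15 to 17 of the 17 were called with the same sign. The difference of slopes gave 0 calls in each alternative, with a smallest limma adjusted p of 0.0592 for slopes per SD.

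With equal medians, 14 of the 42 group differences, 16 FOXP3 slopes and 16 CD8a slopes changed sign, 1 of the last (TNFSF10) a called one. With the residual groups 26 differences did, 4 of them called. Among the genes followed by name, these reversed. With the residual groups the difference became 0.62 for CD27, 0.56 for CD3e, 0.76 for CTLA4, 0.56 for GATA3, 0.47 for ICOS, 0.32 for IL10, 0.076 for TBX and 0.10 for TGFβ. With equal medians it became 0.28 for CTLA4, 0.10 for ICOS, 0.11 for IL10 and 0.41 for TGFβ, and the CD8a slope of TNFSF10 became -0.083. In the smaller batch it became 0.38 for GATA3, 0.17 for TBX and 0.54 for TGFβ. OX40 became -0.027 with a batch term, -0.11 with 3 batches, -0.089 in the larger batch and -0.0085 with that batch divided at its own median. Given CD3e, OX40 became -0.0054 with a batch term, -0.027 with 3 batches and -0.086 in the larger batch. IL10 given CD3e became 0.15 with 11 against 11 tumors, 0.0015 without 2 tumors on each side of the boundary, 0.057 with the continuous ratio, 0.18 with the residual groups and 0.00029 with the larger batch divided at its own median. TGFβ given CD3e became 0.0031 with equal medians and 0.12 with the residual groups. The cause of these changes was not tested. Settings that concern patients 33 and 34 together, the division of the larger batch, the difference of slopes and leaving out each tumor were chosen after seeing the data. No paired analysis was possible because each tumor carries its own patient number and the labels do not give which samples share a dog. Whether a dog has tumors in both groups is therefore not known.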

Other observations

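The housekeeping genes, which set the scale of all values, were not identical between the ratio groups. GUSB was at 11.13 ± 0.35 in high-ratio and 11.45 ± 0.40 in low-ratio tumors, SDHA at 11.95 ± 0.31 and 11.69 ± 0.38, ALAS1 at 12.93 ± 0.61 and 12.91 ± 0.57, and RPL30 at 16.51 ± 0.39 and 16.47 ± 0.46 (log2, SD, n = 17 each). These values were not tested, since the scaling fixes their geometric mean.

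The tumor of patient 19, which had the highest ratio, also held the highest ICOSLG value of the high-ratio tumors, 11.40, and the lowest TGFβ value of all 34 tumors, 9.73. Its PD-1 value of 9.70 was the highest of the high-ratio tumors. These genes were chosen after their values were seen. In the high-ratio group GZMA, TBX and PD-1 were each above the negative-control background in 16 of 17 tumors, and in the low-ratio group in 17 of 17. Other genes lay nearer the background. Pax5 was above it in 12 of 17 high-ratio and 15 of 17 low-ratio tumors, and NCR1 in 12 of 17 in each group.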
